A study of Mus musculus with 6 samples.

Results

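AMP-activated protein kinase (AMPK) and its upstream kinase LKB1 are described here by the transcripts of 8 genes in the soleus (Sol) muscle, namely the catalytic subunit genes Prkaa1 (α1) and Prkaa2 (α2), the regulatory genes Prkab1 (β1), Prkab2 (β2), Prkag1 (γ1), Prkag2 (γ2) and Prkag3 (γ3), and Stk11, which encodes LKB1. They were taken by gene symbol from a table of 24411 genes, and all 8 were found and passed the filter on low counts. AMPK is a trimer of 1 α, 1 β and 1 γ subunit that senses the energy state of the cell: the γ subunit binds adenine nucleotides, the β subunit holds the trimer together and binds glycogen, and the α subunit is the kinase. LKB1, in a complex with STRAD and MO25, phosphorylates the α subunit and a family of AMPK-related kinases. In skeletal muscle AMPK is activated by contraction and acts on glucose uptake, fat oxidation and mitochondrial biogenesis.

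The samples were Sol muscles of 3 WT and 3 LSD1-mKO mice on a C57BL/6 background after voluntary wheel running (VWR), with 1 library of poly(A) RNA per mouse. The LSD1-mKO mice carried Lsd1 flox/flox and a transgene for the tamoxifen-inducible recombinase CreERT2 driven by the human ACTA1 promoter, which is active in differentiating and differentiated muscle cells, so other cells of the muscle keep the gene. The WT mice were Lsd1-floxed without CreERT2. All mice were 8 weeks old at the start, had a wheel for 38 days, and after 3 days of familiarization received tamoxifen at 75 mg/kg for 5 days, and all were kept from the wheel and fasted before the tissue was taken. There were no sedentary mice among these samples, so every comparison is between genotypes under VWR.

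The libraries held 8940206 to 10989846 estimated counts in WT and 10984664 to 13798059 in LSD1-mKO. Levels are given as counts per 1000000 after TMM normalization (CPM) for the comparison of 1 gene between mice, and as transcripts per 1000000 (TPM), which divide by transcript length, for the comparison of different genes. The genotypes were set against each other by the quasi-likelihood test of edgeR, and p was adjusted by the Benjamini-Hochberg method across all 12828 genes that entered the test. Kdm1a, which encodes LSD1, was at 40.5, 38.2 and 33.6 CPM in WT and at 14.6, 16.6 and 16.6 CPM in LSD1-mKO (log2 fold change -1.23 ± 0.109, SE, n = 3 per group, edgeR adjusted p = 0.0160). It was 1 of the 2 genes of the whole table that passed the adjusted threshold of 0.05, the other being Esr1, which rose. The paper lists the CreERT2 line as ACTA1-cre/Esr1*, and only the LSD1-mKO mice carried this transgene. Whether reads of the transgene were counted as Esr1 was not tested, so the rise cannot be assigned to the Esr1 gene of the mouse. The Kdm1a difference kept its size without each mouse in turn (log2 fold change -1.17 to -1.30), but its adjusted p was 0.299 with the replicate block, 0.116 when WT replicate 2 was left out and 0.111, 0.143 and 0.209 when LSD1-mKO replicates 1, 2 and 3 were, and it ran from 7.81e-11 with DESeq2 to 0.299 over all alternatives. The Sol label was checked against fiber markers: the slow markers summed to 36179 to 45375 CPM in WT and 39425 to 48181 CPM in LSD1-mKO, and the fast markers to 50208 to 73334 and 50280 to 61932 CPM. The fast sum was thus above the slow sum in both groups. The lists hold 10 fast and 8 slow genes and CPM does not divide by transcript length, so this order does not give the fiber composition. Among the myosins, the WT means were 13827 CPM for the slow Myh7, 21727 CPM for Myh2, 4037 CPM for Myh1 and 25.2 CPM for Myh4, so transcripts of slow and of type II fibers were both abundant, apart from Myh4. These are whole-muscle libraries, in which fewer cells of a type and less RNA per cell cannot be told apart.

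On the TPM scale Stk11 had the highest level of the 8 genes, with a mean of 119 ± 13.7 TPM over all mice (SD, n = 6). It was followed by Prkag1 at 90.0 ± 3.73, Prkaa2 at 57.6 ± 6.86, Prkab2 at 38.3 ± 7.04, Prkaa1 at 16.8 ± 1.85, Prkab1 at 13.5 ± 2.27, Prkag3 at 9.11 ± 0.785 and Prkag2 at 7.27 ± 0.998 TPM. The ranges of neighbours in this order did not overlap except for Prkaa1 with Prkab1 and Prkag3 with Prkag2. Prkaa1 was nevertheless above Prkab1 within 6 of 6 mice, and Prkag3 above Prkag2 within 5 of 6. Each subunit class thus had 1 gene well above its paralogs, α2, β2 and γ1. This held for every gene length tried. The rest of the order depended on the length: with the mean length of protein-coding transcripts Prkag2 came above Prkab1 and Prkag3, with coding sequence lengths Prkaa2 came first and Stk11 took the next place after Prkab2, and with the union of all exons Prkag1 was above Stk11. The Prkaa2 transcript has 7969 bases in all, of which 1656 are coding sequence.

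**Figure D1:**
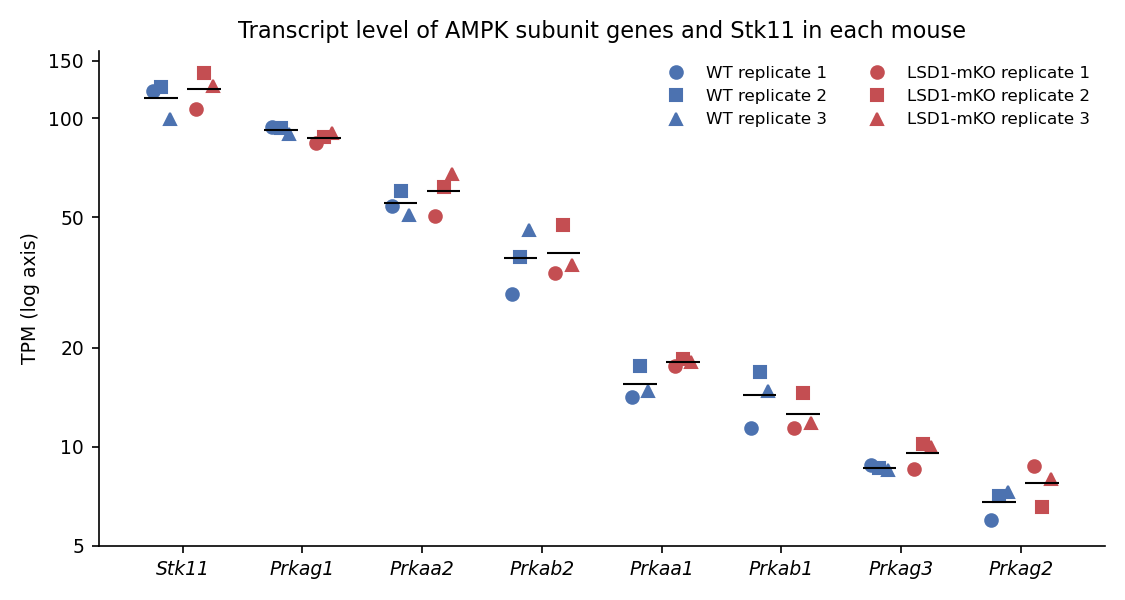
TPM (log axis) of the 8 genes in each of the 3 WT mice (blue) and 3 LSD1-mKO mice (red), ordered by mean level, with marker shapes for the replicate and black lines for group means. The levels run from 5.99 TPM for Prkag2 in WT replicate 1 to 137 TPM for Stk11 in LSD1-mKO replicate 2, and WT and LSD1-mKO points lie side by side for each gene.

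Of the 8 genes, 6 had a higher and 2 a lower fitted level in LSD1-mKO, against 45.2% of all genes tested with a higher one. None passed the adjusted threshold by edgeR, DESeq2 or limma voom, where edgeR passed 0.0156% of all genes. 1 of the 8 had an unadjusted edgeR p under 0.05, against 6.4% of all genes (3.52% higher and 2.88% lower in LSD1-mKO), and 1 of the 8 (12.5%) had groups that did not overlap in CPM, against 12.7% of all genes (6.63% higher and 6.1% lower). Both counts are the same gene, Prkaa1, in the higher direction. The median log2 fold change of the 8 was 0.12 and that of all genes -0.02. The adjusted p of the 8 genes ran from 0.709 to 0.953. Their 95% intervals lay between 0.702-fold and 1.46-fold, and a change beyond those bounds is outside the interval of each of the 8 genes.

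**Figure D2:**
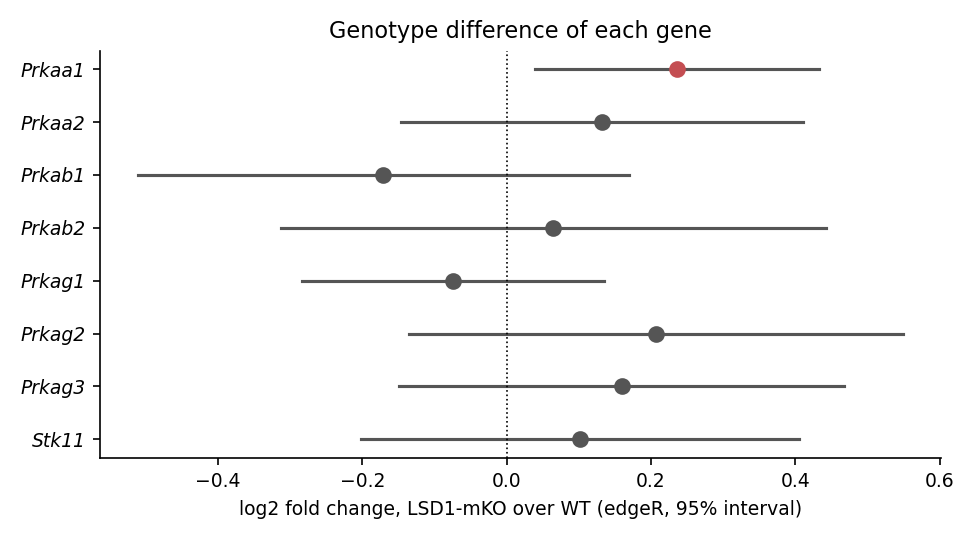
Log2 fold change of each gene, LSD1-mKO over WT, with its 95% interval from edgeR (n = 3 per group). The interval of Prkaa1, in red for groups that do not overlap in CPM, lies from 0.04 to 0.43, and the other 7 intervals include 0.

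Prkaa1 encodes the α1 catalytic subunit, which is made in many cell types. The gene lies on chromosome 15 of GRCm38 from 5143861 to 5181899, on the plus strand. Its level was 32.2, 34.4 and 30.6 CPM in WT and 37.3, 39.1 and 38.2 CPM in LSD1-mKO. Every LSD1-mKO mouse was above every WT mouse on this scale, by at least the gap from 34.4 to 37.3 CPM. The mean went from 32.4 ± 1.88 to 38.2 ± 0.898 CPM (SD, n = 3 each), a log2 fold change of 0.24 ± 0.086 (SE) with an unadjusted edgeR p of 0.0241 and an adjusted p of 0.709. The 2-sided exact permutation test gave p = 0.1, the smallest it can give for 3 against 3. On the TPM scale WT replicate 2 and LSD1-mKO replicate 1 were both at 17.6 TPM, and the groups overlapped there by less than the rounding. The unadjusted p ran from 0.0211 to 0.0842 over 14 other settings and was under 0.05 in 8 of them. Markers of immune cells, which also make this subunit, varied within the groups. The 5 markers summed to 24.0, 103 and 82.1 CPM in WT and 67.3, 29.1 and 40.0 CPM in LSD1-mKO, none of the 5 was at 0 in every library, and all 5 had lower fitted levels with adjusted p of 0.777 or more. Their part in the Prkaa1 values was not tested.

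Prkaa2 encodes α2, the catalytic subunit that dominates in skeletal muscle, and lies on chromosome 4 from 105029874 to 105109890 on the minus strand. It was at 211, 201 and 180 CPM in WT and at 183, 223 and 244 CPM in LSD1-mKO. LSD1-mKO replicate 1 was below WT replicates 1 and 2, and the groups overlapped. Its fitted log2 fold change was 0.13 ± 0.12 (SE, edgeR adjusted p = 0.866), with a 95% interval of -0.15 to 0.41. It was 0.04 without LSD1-mKO replicate 3 and 0.07 without WT replicate 3, and 0.24 without LSD1-mKO replicate 1.

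The 250 bases before the RefSeq start sites of Prkaa1 and Prkaa2, the paralogs whose transcripts make up the α class, and of Stk11, the gene with the highest TPM, are shown from 5′ to 3′ on the strand of each gene (RefSeq, GRCm38.p6). Capitals mark the GC box GGGCGG and the CCAAT box on either strand. The windows are chr15:5143611-5143860 (plus strand), chr4:105109899-105110148 (minus strand) and chr10:80115545-80115794 (plus strand).
Prkaa1: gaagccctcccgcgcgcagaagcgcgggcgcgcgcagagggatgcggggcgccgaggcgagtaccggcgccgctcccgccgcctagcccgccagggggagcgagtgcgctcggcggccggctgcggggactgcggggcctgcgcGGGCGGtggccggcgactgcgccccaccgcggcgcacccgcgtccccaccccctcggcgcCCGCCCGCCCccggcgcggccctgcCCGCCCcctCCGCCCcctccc
Prkaa2: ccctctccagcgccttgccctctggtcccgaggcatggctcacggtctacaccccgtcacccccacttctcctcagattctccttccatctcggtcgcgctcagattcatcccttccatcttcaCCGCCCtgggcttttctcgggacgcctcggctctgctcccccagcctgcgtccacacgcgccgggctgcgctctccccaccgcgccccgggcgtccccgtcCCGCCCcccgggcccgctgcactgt
Stk11: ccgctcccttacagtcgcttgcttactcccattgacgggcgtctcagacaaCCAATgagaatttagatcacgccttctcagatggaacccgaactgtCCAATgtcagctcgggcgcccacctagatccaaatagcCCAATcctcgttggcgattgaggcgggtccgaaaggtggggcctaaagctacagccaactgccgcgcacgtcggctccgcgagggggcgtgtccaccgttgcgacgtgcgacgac
The Prkaa1 window had 85.2% GC and 45 CpG dinucleotides, the Prkaa2 window 70.0% and 24, and the Stk11 window 59.6% and 24, where the median of 32851 mouse promoter windows of this length was 52.4% and 6. The Prkaa1 window held 5 matches to the GC box, in part overlapping each other, and the Prkaa2 window 2, a box found in 32.7% of all windows. The Stk11 window held none of these and 3 CCAAT boxes, found in 33.8% of all windows. The site AAGGTCA of estrogen-related receptors, in 4.08% of all windows, was found in 1 of the 10 windows of the 8 genes, at the second of the 3 start sites listed for Prkag2. The TATA box TATAAA and the E-box CACGTG were searched on both strands and had no match in the 10 windows, which says only that these letters are not there.

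Prkab1 encodes β1 and lies on chromosome 5 from 116013586 to 116024508 on the minus strand. It was at 11.7, 14.9 and 13.7 CPM in WT and at 10.9, 13.8 and 11.2 CPM in LSD1-mKO. The groups overlapped, since LSD1-mKO replicate 2 was above WT replicates 1 and 3. The log2 fold change was -0.17 ± 0.15 (SE, edgeR adjusted p = 0.860). It was -0.09 without WT replicate 2 and -0.10 without LSD1-mKO replicate 1, and -0.28 without LSD1-mKO replicate 2.

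Prkab2 encodes β2, the form that dominates in muscle, and lies on chromosome 3 from 97658193 to 97673812 on the plus strand. It was the most variable of the 8 genes between mice, at 71.5, 79.8 and 102 CPM in WT and 77.1, 107 and 80.7 CPM in LSD1-mKO. Each group had 1 mouse above 100 CPM and 2 near 80 CPM or below. LSD1-mKO over WT gave a log2 fold change of 0.06 ± 0.16 (SE, edgeR adjusted p = 0.953), and it turned to -0.04 without WT replicate 1 and to -0.09 without LSD1-mKO replicate 2. Its coefficient of variation over all mice was 16.8%, against 4.11% from counting alone at its lowest count and a median of 10.8% over genes of at least 5 CPM.

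Prkag1 encodes γ1, the most widely expressed γ subunit, and lies on chromosome 15 from 98812797 to 98831521 on the minus strand. It was at 76.2, 64.8 and 65.8 CPM in WT and at 63.3, 65.7 and 67.3 CPM in LSD1-mKO, where WT replicate 1 stood above the other 5 mice. The log2 fold change was -0.07 ± 0.091 (SE, edgeR adjusted p = 0.895), and without WT replicate 1 it was 0.00. Its coefficient of variation of 6.86% was the lowest of the 8 genes. With scaling to library size alone the groups did not overlap, which was not so after TMM normalization or in TPM.

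Prkag2 encodes γ2, mutations of which are known from glycogen storage in the heart, and lies on chromosome 5 from 24862744 to 25100642 on the minus strand. It was at 9.76, 9.90 and 10.7 CPM in WT and at 13.3, 9.84 and 12.0 CPM in LSD1-mKO. LSD1-mKO replicates 1 and 3 were above all WT mice and replicate 2 was among them. The fitted difference was a log2 fold change of 0.21 ± 0.15 (SE, edgeR adjusted p = 0.817) on 81 to 180 counts per library, and counting alone gives a coefficient of variation of 11.1% at the lowest of these counts. Without LSD1-mKO replicate 1 it was 0.10, and without LSD1-mKO replicate 2 it was 0.33.

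Prkag3 encodes γ3, the subunit known for its restriction to glycolytic muscle fibers, and lies on chromosome 1 from 74738922 to 74749221 on the minus strand. It was at 12.2, 10.3 and 10.7 CPM in WT and at 11.0, 13.1 and 12.8 CPM in LSD1-mKO, with LSD1-mKO replicate 1 below WT replicate 1. The log2 fold change was 0.16 ± 0.13 (SE, edgeR adjusted p = 0.854). Of the 10 fast fiber markers, 4 had a higher and 6 a lower fitted level, and the median log2 fold change was -0.06. None of the 10 was at 0 in every library. The 1 marker with an unadjusted p under 0.05, named after its values were seen, was Actn3, the fast-fiber α-actinin, at 91.9, 63.6 and 198 CPM in WT and 497, 165 and 341 CPM in LSD1-mKO (log2 fold change 1.503 ± 0.48, edgeR adjusted p = 0.636), with overlapping groups. The part of fiber composition in the Prkag3 values was not tested.

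Stk11 lies on chromosome 10 from 80115803 to 80130682 on the plus strand. It was at 153, 134 and 114 CPM in WT and at 125, 159 and 145 CPM in LSD1-mKO, and the groups overlapped over most of their ranges. Between genotypes the log2 fold change was 0.10 ± 0.13 (SE, edgeR adjusted p = 0.900), and without WT replicate 3 it was 0.00. Its estimated counts were not whole numbers in 6 of 6 libraries. The counting tool is not known, and whether some of its reads were shared out between features was not tested. The other members had whole counts apart from Prkag1 in 1 library. In GENCODE, 6 of the 8 genes (all but Prkaa2 and Prkag3) overlap a gene on the opposite strand, and the sources used here do not state that the reads were counted by strand. Of these overlapping genes, Prkag2os1 was listed in the table under its own symbol, with at most 2 counts in a library.

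The isoform shares, the TPM of each isoform as a percentage of the summed TPM of its class, put α2 at 77.3 ± 1.82%, β2 at 73.8 ± 2.77% and γ1 at 84.6 ± 1.36% of their classes over all mice (SD, n = 6). γ3 made up 8.57 ± 0.756% and γ2 6.86 ± 1.09% of the γ transcripts. A share within a mouse does not depend on library normalization, but it depends on the transcript length used: the share of α1 was 22.7% with the longest coding transcript and 14.5% with the coding sequence, and that of γ2 ran from 4.74% with the exon union to 12.2% as a share of counts.

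α1 made up 20.7%, 22.6% and 22.6% of the α transcripts in WT and 25.8%, 23.1% and 21.2% in LSD1-mKO. The groups overlapped, with means of 21.9 ± 1.11% and 23.4 ± 2.36% (SD, n = 3 each; 2-sided exact permutation p = 0.4). LSD1-mKO replicates 1 and 2 were above all WT mice and replicate 3 was among them. The difference of 1.41 percentage points was 0.165 without LSD1-mKO replicate 1, 2.51 without LSD1-mKO replicate 3 and 0.772 without WT replicate 1. β1 made up 28.2%, 30.9% and 24.4% of the β transcripts in WT and 25.3%, 23.5% and 24.9% in LSD1-mKO. These groups also overlapped, with means of 27.8 ± 3.26% and 24.6 ± 0.915% (exact permutation p = 0.3). The β1 share of WT spread over more than the 3.22 percentage points between the group means. The difference was -1.69 percentage points without WT replicate 2 and -4.93 without WT replicate 3.

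**Figure D3:**
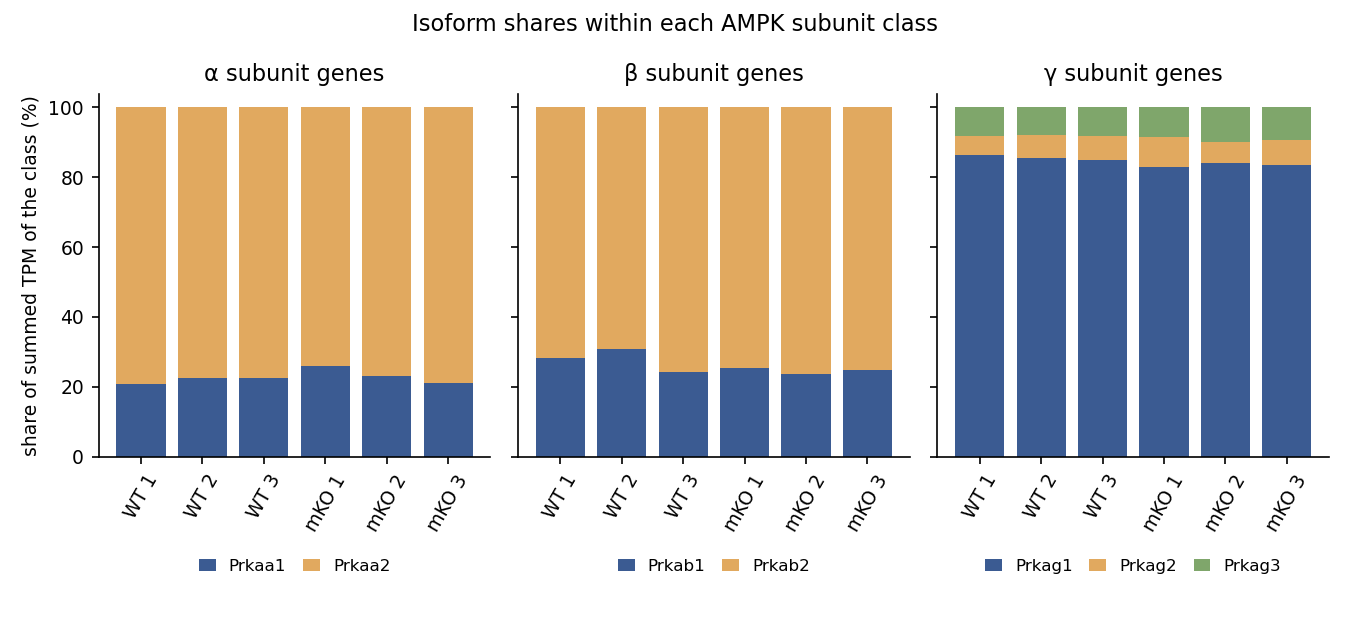
Share of each isoform in the summed TPM of its class (%), stacked, for each of the 3 WT and 3 LSD1-mKO (mKO) mice. Prkaa2, Prkab2 and Prkag1 hold at least 69.1% of their class in every mouse, and the bars differ little between genotypes.

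γ1 made up 86.4%, 85.6% and 85.1% of the γ transcripts in WT and 82.9%, 84.0% and 83.4% in LSD1-mKO. Every LSD1-mKO mouse was below every WT mouse, with means of 85.7 ± 0.695% and 83.4 ± 0.541%, a difference of -2.27 percentage points (2-sided exact permutation p = 0.1, the smallest possible). γ3 made up 8.06%, 7.91% and 8.04% in WT and 8.43%, 9.77% and 9.22% in LSD1-mKO, again without overlap, with means of 8.002 ± 0.0829% and 9.14 ± 0.673% and a difference of 1.14 percentage points (exact permutation p = 0.1). γ2 made up 5.49%, 6.49% and 6.89% in WT and 8.66%, 6.24% and 7.38% in LSD1-mKO, which overlapped (exact permutation p = 0.3). The difference of 1.13 percentage points was 0.736 without WT replicate 1, 0.518 without LSD1-mKO replicate 1 and 1.73 without LSD1-mKO replicate 2. The shares of a class are bound to sum to 100%, so the lower γ1 share and the higher γ2 and γ3 shares are not separate results. Groups without overlap were also found in CPM for 12.7% of all genes tested, and no such rate was computed for shares.

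The counting depth behind this pattern is described by intervals for single mice. As shares of the γ counts, γ3 was 12.4% in WT replicate 1 (101 of 814 counts, exact 95% binomial interval 10.2% to 14.9%) and 14.8% in LSD1-mKO replicate 2 (181 of 1225 counts, 12.8% to 16.9%), and the intervals of these mice, the WT mouse with the highest and the LSD1-mKO mouse with the highest γ3 share of counts, overlapped. For γ1 the intervals of the pair farthest apart, WT replicate 1 (74.6% to 80.5%) and LSD1-mKO replicate 1 (69.6% to 74.7%), just overlapped. Those of the nearest pair, WT replicate 3 (72.6% to 78.1%) and LSD1-mKO replicate 2 (71.6% to 76.6%), overlapped over most of their width. Such intervals cover counting error only. Overlap of the intervals of 2 mice is not a test of their difference, and the part of depth in the pattern was not tested. The spread of the γ3 share among the WT mice was narrower than these intervals. With a 2-sided test that cannot give less than 0.1, none of the 7 shares could pass 0.05.

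Within each mouse, the ratio of γ1 to γ3 transcripts was 10.7, 10.8 and 10.6 in WT and 9.84, 8.60 and 9.05 in LSD1-mKO, with means of 10.7 ± 0.124 and 9.16 ± 0.626 (SD, n = 3 each). This ratio is the quotient of the γ1 and γ3 shares, which lay apart in opposite directions. Its lack of overlap thus restates the share result and adds nothing to it. The other 3 ratios shown between paralogs overlapped between genotypes. α2 over α1 was 3.56 ± 0.237 in WT and 3.31 ± 0.430 in LSD1-mKO. β2 over β1 was 2.63 ± 0.437 and 3.07 ± 0.155, and γ1 over γ2 was 13.8 ± 1.76 and 11.4 ± 1.95.

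**Figure D4:**
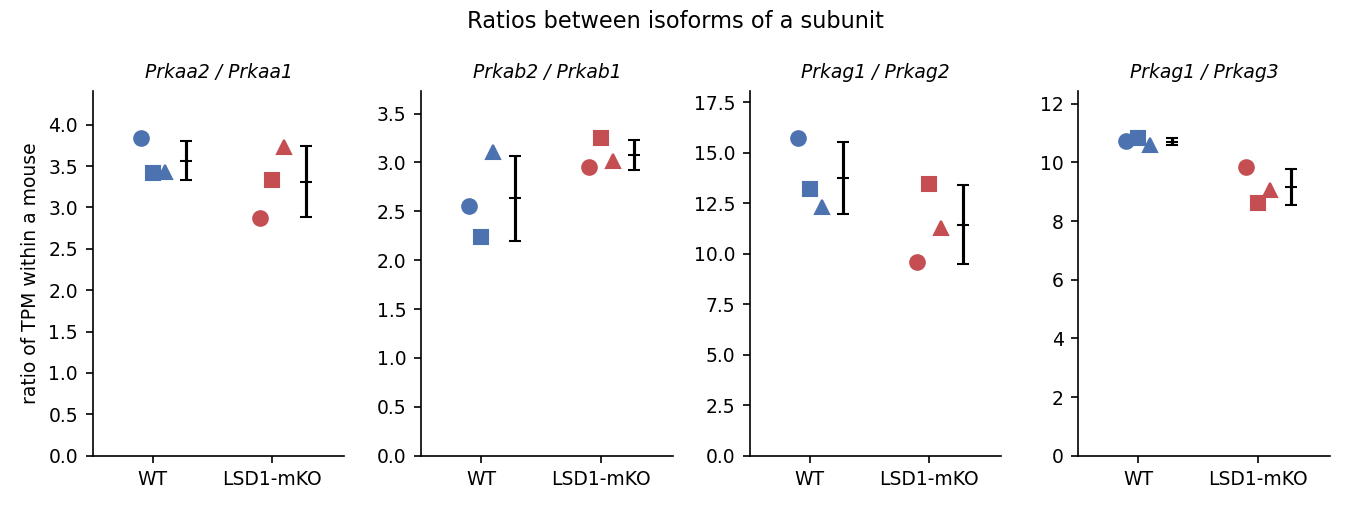
Ratio of the TPM of paralogs within each mouse for 3 WT (blue) and 3 LSD1-mKO mice (red), with the group mean and SD in black beside the points and axes from 0. Prkag1 over Prkag3 lies from 10.6 to 10.8 in WT and from 8.60 to 9.84 in LSD1-mKO, which restates the shares of both genes, while the other 3 ratios overlap.

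The summed transcripts of each class overlapped between genotypes. The α genes summed to 68.4, 77.7 and 65.8 TPM in WT and 68.0, 80.5 and 85.9 TPM in LSD1-mKO. The β genes summed to 40.6, 54.8 and 60.6 TPM and to 45.2, 61.9 and 47.6 TPM. The γ genes summed to 109, 109 and 106 TPM and to 101, 105 and 108 TPM, so the γ class was the most even between mice and the β class the lowest in each of them on this scale. With coding sequence lengths the γ class was the lowest, with means over the 6 mice of 156, 130 and 87.7 TPM for α, β and γ. With the longest transcript lengths, Stk11 was at 1.63 ± 0.134 times the summed α transcripts in WT and 1.58 ± 0.125 times in LSD1-mKO (SD, n = 3 each). This order also depends on the length. With coding sequence lengths the mean of Prkaa2 alone was above that of Stk11, so Stk11 was below the α sum.

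Genes whose CPM followed a member most closely over the 6 mice were sought among 10211 genes of at least 5 CPM by Pearson's r of log2(CPM + 1). They are a description of these 6 mice, which share genotype and library differences. The closest of 10211 genes were picked over only 6 mice, so the choice itself favours a high r, and no p was computed. For Stk11 they included Klhl31 (r = 0.998) and Gcdh (0.994), and for Prkaa2 they were Aifm2 (0.998), 2410127L17Rik (0.979) and Fndc5 (0.979). For Prkab2 they were Map6 (0.984), Intu (0.980) and Whamm (0.974), for Prkag1 Fkbp4 (0.994), Coq7 (0.992) and Zfp839 (0.988), and for Prkag3 Naa30 (0.995), Msrb1 (0.993) and Sms (0.991). Fndc5, which encodes the precursor of irisin, ran from 178 to 282 CPM.

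Around the 8 genes, 58 further genes of the pathway were grouped by role in 9 lists, and 57 were tested (Brsk2 was too low). Their fitted levels were higher in LSD1-mKO for 24 and lower for 33, with a median log2 fold change of -0.02, equal at this precision to that of all genes. None passed the adjusted threshold by edgeR, and 5 of 57 (8.77%) had an unadjusted p under 0.05, against 6.4% of all genes. The groups did not overlap in CPM for 7 of 57 (12.3%, against 12.7% of all genes).

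The LKB1 partners Strada, Stradb, Cab39 and Cab39l, the pseudokinases and scaffolds of the LKB1 complex, had 4 higher and 0 lower fitted levels, all with log2 fold changes of 0.15 or less. The other AMPK kinases Camkk1, Camkk2 and Map3k7 had 2 higher and 1 lower. The AMPK-related kinases that LKB1 activates had 4 higher and 7 lower of 11 tested. The groups of 3 of the 11 did not overlap, against 12.7% of all genes tested and 12.3% over the 9 lists together. Mark1, a kinase of microtubule-associated proteins, was at 13.3, 11.1 and 12.0 CPM in WT and 16.9, 14.9 and 17.0 CPM in LSD1-mKO (log2 fold change 0.43 ± 0.12, edgeR adjusted p = 0.578). Sik1, a salt-inducible kinase that acts on class IIa histone deacetylases and CRTC coactivators, was at 86.0, 59.1 and 111 CPM in WT and 41.4, 48.0 and 53.3 CPM in LSD1-mKO, and every LSD1-mKO mouse was below every WT mouse. The fitted difference on the log2 scale was -0.84 ± 0.21 (SE), which did not pass the threshold (edgeR adjusted p = 0.503). With DESeq2 the adjusted p was 0.0339, and over all alternatives it ran from 0.0339 to 0.998. Snrk, named after its values were seen, was the other kinase of this list without overlap, at 183 to 198 CPM in WT and 150 to 175 CPM in LSD1-mKO (edgeR adjusted p = 0.766).

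**Figure D5:**
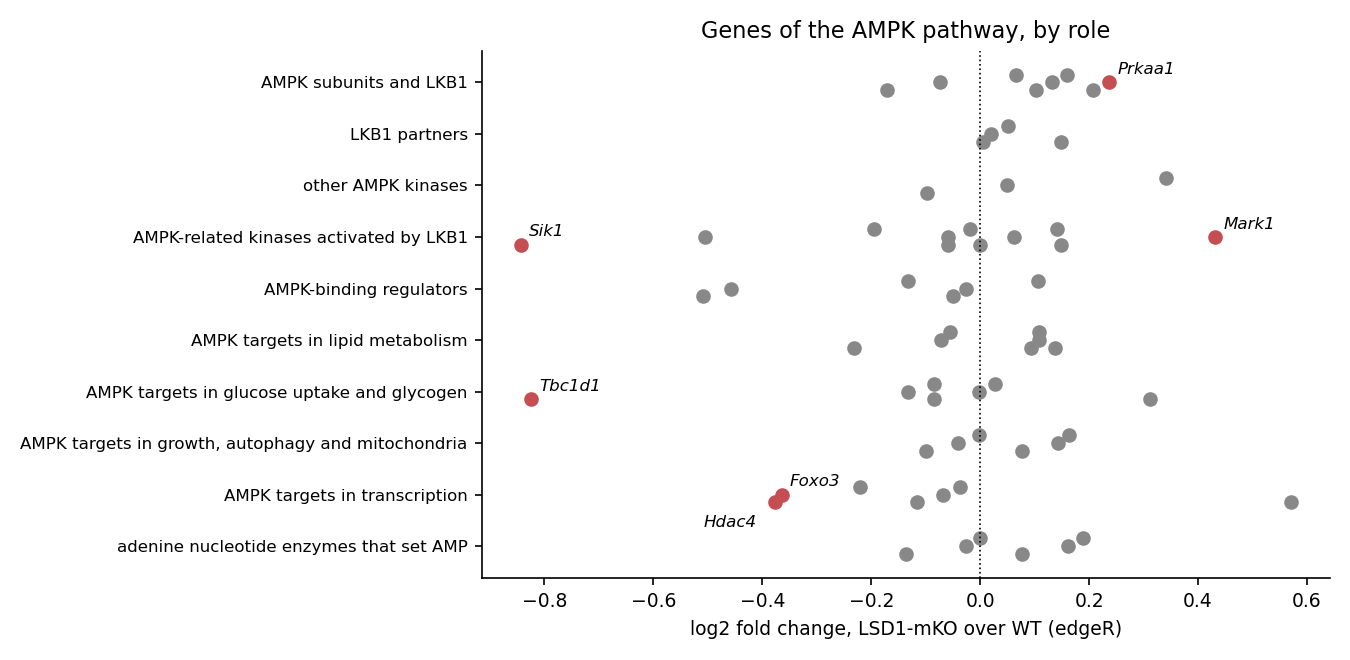
Log2 fold change (edgeR), LSD1-mKO over WT, of each tested gene of the AMPK subunits and LKB1 and of the 9 pathway lists, 1 point per gene and 1 row per list, with an unadjusted p under 0.05 in red and named. Sik1 and Tbc1d1 lie lowest at -0.84 and -0.83, Ppargc1a lies highest at 0.57 in grey, and none passed the adjusted threshold with edgeR.

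Among the AMPK targets in glucose uptake and glycogen, 2 were higher and 5 lower. Tbc1d1, a Rab GTPase-activating protein whose phosphorylation lets glucose transporters reach the membrane, was at 79.4, 41.5 and 80.0 CPM in WT and 41.4, 35.8 and 36.0 CPM in LSD1-mKO. WT replicate 2 lay just above LSD1-mKO replicate 1 and far from the other WT mice. Its log2 fold change was -0.83 ± 0.23 (SE, edgeR adjusted p = 0.578), and with each mouse left out in turn the adjusted p ran from 0.0785 without WT replicate 2 to 0.998 without LSD1-mKO replicate 3. The transporter gene Slc2a4 (GLUT4) was at a mean of 597 CPM in WT and 596 CPM in LSD1-mKO.

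The AMPK targets in transcription had 1 higher and 6 lower, with a median log2 fold change of -0.12. Foxo3, a transcription factor of stress and atrophy genes, had a log2 fold change of -0.36 ± 0.16 on 19.2, 18.3 and 26.0 CPM in WT and 18.2, 15.8 and 15.4 CPM in LSD1-mKO (edgeR adjusted p = 0.766). Without WT replicate 3, the highest mouse, it was -0.18, and the unadjusted edgeR p was under 0.05 in 7 of 14 other settings. Hdac4, a class IIa histone deacetylase, was at 28.0, 25.4 and 27.6 CPM in WT and 17.2, 24.5 and 20.6 CPM in LSD1-mKO (log2 fold change -0.38 ± 0.13, edgeR adjusted p = 0.701). Crtc2, named after its values were seen, also had groups without overlap (-0.22 ± 0.11, edgeR adjusted p = 0.766). The gene with a higher fitted level was Ppargc1a, the coactivator of mitochondrial biogenesis, at 79.7, 48.2 and 59.0 CPM in WT and 143, 58.3 and 75.5 CPM in LSD1-mKO, with overlapping groups (0.57 ± 0.32, edgeR adjusted p = 0.777). LSD1-mKO replicate 1 stood above the other 5 mice, and without it the log2 fold change was 0.11.

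The remaining lists had no gene with an unadjusted p under 0.05. The AMPK-binding regulators, folliculin with its partners and the sestrins, had 1 higher and 5 lower. The targets in lipid metabolism, among them Acacb, which makes the inhibitor of mitochondrial fatty acid import, had 4 higher and 3 lower. The targets in growth, autophagy and mitochondria had 3 higher and 3 lower, and the enzymes of adenine nucleotides, among them Ak1 and Ampd1, also had 3 higher and 3 lower.

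Markers of the other cells of the muscle gave no gene past the adjusted threshold. The 5 fibroblast markers summed to 943, 2593 and 3054 CPM in WT and 2033, 1096 and 1187 CPM in LSD1-mKO, with all 5 lower, and WT replicate 1 was the lowest of all mice for both fibroblast and immune markers. Endothelial markers had 2 higher and 3 lower, adipocyte markers 3 and 2, and Schwann cell markers 0 and 5, with median log2 fold changes of -0.15, 0.09 and -0.05. Red blood cell markers had 1 higher and 4 lower, the higher one being Hba-a1 (edgeR adjusted p = 0.684, named after its values were seen). The 8 slow fiber markers had 7 higher and 1 lower with a median of 0.16. No marker of these lists was at 0 in every library. Their part in the values of the 8 genes was not tested.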

How the data were processed

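Poly(A) RNA of Sol muscle from 3 WT and 3 LSD1-mKO mice after VWR was read as 75-base single-end reads, which the authors aligned to mm10 with STAR. The authors deposited estimated counts per gene, not normalized, with 1 column per mouse. The counting tool and annotation are not given in the sources used here. A deposited table of the authors' own DESeq2 comparison (log2 fold changes, p-values and adjusted p-values) was not used.

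After rounding, edgeR 4.0.16 in R 4.3.3 was applied to the counts (TMM, filterByExpr, quasi-likelihood test, Benjamini-Hochberg adjustment over 12828 genes, threshold 0.05), after a check on simulated data. The study's own test, DESeq2 (1.42.0), was an alternative, as were limma voom (3.58.1), other normalizations and filters, a replicate block and each mouse left out in turn. TPM used the longest protein-coding transcript of GENCODE vM21 (GRCm38), for which 23350 symbols matched directly, 650 through older names and 411 not at all, and 99.7% of counts had a length. Other lengths were alternatives, of which those for class totals were added after the data were seen. Isoform shares were compared by the 2-sided exact permutation test. Totals ran from 8940206 to 13798059 estimated counts. No pair of libraries of a group was as alike as repeated draws of 1 library (chi-square per gene at least 9.92).

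The 8 genes, the pathway and marker lists and the tests were chosen with earlier results of these data known. The named genes are the 8, listed pathway genes with an unadjusted p under 0.05, Kdm1a, and for the leading isoform of each class, Prkag3 and Stk11 the 3 genes most like it. Exceptions are marked. A gene that this rule names is not reported here. The edgeR p-values set the genotype difference against the variation between these mice, estimated with information shared across genes. The exact p-values, apart from those with the replicate block, place the difference among the 20 possible assignments of the mice to genotype. Promoter windows are from RefSeq (GRCm38.p6). Protein sequences were not used here.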

Additional observations from a re-analysis of the deposited data

How the results depend on the processing

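No member passed the adjusted threshold under any alternative run. Of 112 refits of the 8 genes, 108 kept their direction, and 4 did not, with log2 fold changes of -0.037 (Prkab2 without WT replicate 1), -0.090 (Prkab2 without LSD1-mKO replicate 2), 0.0043 (Prkag1 without WT replicate 1) and -0.0019 (Stk11 without WT replicate 3). With each mouse left out, Prkab2 ranged from -0.090 to 0.22, Prkag1 from -0.12 to 0.0043, Stk11 from -0.0019 to 0.21, Prkaa2 from 0.04 to 0.24, Prkab1 from -0.28 to -0.09 and Prkag2 from 0.10 to 0.33. The number of members with an unadjusted p under 0.05, 1 in the values reported, was 0 with DESeq2, with library size alone and with the replicate block, and 0 to 1 with each mouse left out. It was 0 without WT replicate 3, LSD1-mKO replicate 2 or LSD1-mKO replicate 3.

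Over all genes the calls of 1 higher and 1 lower became 33 and 9 with DESeq2, 2 higher with voom, 8 and 3 with no filter on low counts, and 0 lower with the replicate block, the lost call being Kdm1a. With each mouse left out they were 1 to 2 higher and 0 to 1 lower, with 2 higher without WT replicate 1 and 0 lower without WT replicate 2 or any LSD1-mKO mouse. The pathway lists had 0 called genes, and 1 with DESeq2, Sik1 (log2 fold change -0.84). Their 5 genes with an unadjusted p under 0.05 became 3 to 10 with each mouse left out, with 10 without WT replicate 1, 8 without LSD1-mKO replicate 1, and 3 without WT replicate 3 or LSD1-mKO replicate 3. Same-numbered mice did not deviate together (correlations -0.35, -0.11 and -0.15), so a shared number was not taken as a pair. No share difference changed sign under any alternative run, and with the block the differences in the shares of γ1 and γ3 had exact p = 0.25.

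Mean shares depend on gene length. With coding sequence lengths they were 14.5% and 85.5% for Prkaa1 and Prkaa2, 13.0% and 87.0% for Prkab1 and Prkab2, 82.5% for Prkag1 and 9.67% for Prkag3. With the mean length of protein-coding transcripts Prkag2 was at 8.33% and Prkag3 at 6.29%. With the exon union Prkab1 and Prkab2 were at 19.8% and 80.2%, Prkag1 at 86.4% and Prkag2 at 4.74%. As shares of counts they were 14.6% and 85.4%, 12.9% and 87.1%, and 74.8%, 12.2% and 13.0% for γ1 to γ3. Summed TPM of the α, β and γ genes were 156, 130 and 87.7 with coding lengths, 55.0, 38.4 and 127 with mean lengths, and 105, 65.9 and 111 with exon unions, an alternative added after the data were seen. Low counts of Prkag2 and Prkag3 and 3 mice per group limit the precision.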
